A study of Mus musculus with 6 samples.

Results

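The genes described here are targets of hypoxia-inducible factor (HIF) and enzymes of glycolysis in mouse skin fibroblasts (MSFs). A list of 40 symbols was compiled by known function and selected on the level of many of these genes in replicate 2 of the EtOH samples, which stood apart from every other sample. That level is therefore given below as a description, with no test. Rows of the deposited table whose gene name equals a listed symbol were taken, and 41 of the 22162 rows matched, for 38 of the 40 symbols. Of these rows, 38 are the genes of those names, with Pgm1 used here for the gene that RefSeq now names Pgm2. The other 3 are further loci listed under the same names, a pair under Gapdh (Gm5069 and Gm6981 by Ensembl identifier) and Aldoart2 under Aldoa. No row is named Eno1 or Higd1a. By Ensembl identifier these genes stand in the table as Gm5506 and Gm9790, and their values are given apart from the members. Of the 41 rows, 39 reached 16.2 normalized counts, which stands for 1 c.p.m. of the mean library total, in at least 3 of the 6 libraries and entered the tests. They are the 38 genes and Gm5069.

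The cells came from the FASST mouse, on an FVB background and labelled FVB/N, which carries tamoxifen (TAM)-inducible Cre-ERT2 under the pro-alpha2(I) collagen promoter and a p27Kip1 allele in ROSA26 behind a lox-stop-lox cassette, linked to GFP. Poly(A) RNA was sequenced from 3 samples given 10 µM TAM for 48 h, which the labels call senescent, and from 3 samples given ethanol (EtOH) as vehicle, called non-senescent. All 6 samples carried both alleles and were cultured in 3% oxygen with 5% carbon dioxide and nitrogen as the balance, so a low-oxygen atmosphere was common to both groups and the comparison holds no sample in room air. The cells were 1 line isolated from the dorsal skin of a single FASST mouse, whose age is not given in the sources used here. Nothing states that the 3 samples of a group were separate cultures, so p-values measure the spread between these samples, which may be technical.

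HIF is a transcription factor of an alpha subunit, such as the product of Hif1a, and the beta subunit ARNT. In oxygen, prolyl hydroxylases of the EGLN family mark the alpha subunit for destruction by the VHL ubiquitin ligase, and in hypoxia the subunit accumulates and binds hypoxia response elements near its targets. Those targets include glucose transporters, most enzymes of glycolysis, Pdk1, which restrains entry of pyruvate into the mitochondrion, mitophagy receptors, and the hydroxylases that fibroblasts need to fold collagen.

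The core of the hypoxia response element is written ACGTG or GCGTG, and both were searched on both strands of the promoters in RefSeq (GRCm38.p6), from 250 bases before to 50 bases after each gene's start. A CACGTG run counts as ACGTG on both strands. The 5 promoters printed first belong to genes whose EtOH replicate 2 level lay far above the other libraries (Ero1l is named Ero1a in RefSeq), and the last 2 to Car9, a widely used hypoxia marker, and Hif1a, which did not share that pattern. Capitals mark the motif on either strand, as CACGT or CACGC where it lies on the opposite strand.
Egln3, minus strand of chr12:54203825-54204124: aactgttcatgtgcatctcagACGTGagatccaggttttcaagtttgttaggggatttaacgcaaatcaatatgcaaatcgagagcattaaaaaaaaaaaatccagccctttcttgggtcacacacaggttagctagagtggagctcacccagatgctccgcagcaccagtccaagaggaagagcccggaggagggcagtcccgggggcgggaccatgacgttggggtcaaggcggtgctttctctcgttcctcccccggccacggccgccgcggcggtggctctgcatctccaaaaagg
Ankrd37, minus strand of chr8:45999801-46000100: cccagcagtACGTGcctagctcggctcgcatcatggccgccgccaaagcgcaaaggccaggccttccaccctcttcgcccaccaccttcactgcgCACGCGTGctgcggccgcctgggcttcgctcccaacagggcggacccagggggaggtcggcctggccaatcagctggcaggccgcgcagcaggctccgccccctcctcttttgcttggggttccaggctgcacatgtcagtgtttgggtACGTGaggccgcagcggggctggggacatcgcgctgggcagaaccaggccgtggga
Slc2a1, plus strand of chr4:119108495-119108794: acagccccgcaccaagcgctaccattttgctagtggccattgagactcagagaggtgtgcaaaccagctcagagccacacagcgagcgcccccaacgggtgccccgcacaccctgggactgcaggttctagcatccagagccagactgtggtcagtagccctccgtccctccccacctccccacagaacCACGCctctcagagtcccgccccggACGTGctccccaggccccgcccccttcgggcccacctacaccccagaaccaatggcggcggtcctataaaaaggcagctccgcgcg
Bnip3, minus strand of chr7:138909457-138909756: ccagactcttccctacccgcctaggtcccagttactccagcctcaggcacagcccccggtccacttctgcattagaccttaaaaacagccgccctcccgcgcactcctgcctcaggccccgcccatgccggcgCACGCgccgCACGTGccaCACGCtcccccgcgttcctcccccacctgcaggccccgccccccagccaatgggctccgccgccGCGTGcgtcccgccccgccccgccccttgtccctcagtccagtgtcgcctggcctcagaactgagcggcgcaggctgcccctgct
Ero1l, minus strand of chr14:45318523-45318822: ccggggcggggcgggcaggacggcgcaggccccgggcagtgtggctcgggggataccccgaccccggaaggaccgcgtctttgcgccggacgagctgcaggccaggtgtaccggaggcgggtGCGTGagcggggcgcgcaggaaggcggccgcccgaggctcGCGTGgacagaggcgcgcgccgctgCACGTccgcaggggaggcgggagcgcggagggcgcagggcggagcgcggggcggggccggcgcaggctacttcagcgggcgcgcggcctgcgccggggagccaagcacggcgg
Car9, plus strand of chr4:43506776-43507075: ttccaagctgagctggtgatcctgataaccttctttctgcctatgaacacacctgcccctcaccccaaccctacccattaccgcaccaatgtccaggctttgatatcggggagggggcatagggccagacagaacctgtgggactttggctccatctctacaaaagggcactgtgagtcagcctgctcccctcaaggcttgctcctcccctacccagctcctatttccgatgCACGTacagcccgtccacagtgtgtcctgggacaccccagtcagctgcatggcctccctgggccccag
Hif1a, plus strand of chr12:73907617-73907916: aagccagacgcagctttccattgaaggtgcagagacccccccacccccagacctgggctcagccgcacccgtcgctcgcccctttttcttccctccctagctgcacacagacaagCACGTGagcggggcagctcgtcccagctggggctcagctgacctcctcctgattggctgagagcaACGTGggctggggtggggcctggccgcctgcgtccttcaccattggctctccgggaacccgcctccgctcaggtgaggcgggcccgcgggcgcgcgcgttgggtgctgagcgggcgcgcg
All 7 held at least 1 core, so among these 7 the presence of the letters did not separate the genes that were high in EtOH replicate 2 from Car9 and Hif1a. Promoters of 34 of the 38 genes were matched, 45 in all. ACGTG stood in 27 of these 45 (60.0%), against 19.6% of all 32851 promoters of the same length and 28.0% of the 14281 with at least 10 CpG. GCGTG stood in 23 (51.1%), against 32.4% and 56.6%, and at least 1 of these motifs in 35 (77.8%), against 43.8% and 68.4%. Of the 34 genes matched, 30 held at least 1 of these motifs. Apln, Gpi1, Gys1 and Tpi1 held neither, although each of these was highest in EtOH replicate 2. Slc2a3, Ndrg1, Stc1 and Bnip3l were not matched.

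The libraries summed to between 14952367 and 17314953 normalized counts, and the read depth behind them is not known. Cdkn1b, the gene of p27Kip1, was listed at 1427, 3074 and 1853 normalized counts in EtOH replicates 1, 2 and 3 and at 1699, 1519.8 and 1630.0 in TAM replicates 1, 2 and 3. The groups overlapped, so this gene did not separate the activated allele from the silent one, and TAM and EtOH below mean the libraries so labelled. By other assays the paper reports GFP from the transgene and growth arrest in MSFs given TAM. All 10 fibroblast markers examined reached 1 c.p.m., with summed levels of 1962055 to 2082633 in EtOH and 1278753 to 1594317 in TAM, so the sums were lower in TAM. Of the other cell types, Emr1, Krt1, Cldn5, Ckm, Myh4 and Lep were at 0 in every library. Some other markers moved with EtOH replicate 2. The 6 adipocyte markers, of which 1 reached 1 c.p.m., summed to 338 there and to between 12.2 and 104 elsewhere, nearly all of it Fabp4, and the 6 melanocyte markers found of 7 summed to 1010 against 295 to 759, most of it Mitf. The 8 macrophage markers, of which 4 reached 1 c.p.m., summed to 528 there and to 549 in TAM replicate 2, against 203 to 437 in the other libraries. Their part in the results was not tested. The 8 skeletal muscle markers summed to 1420 in TAM replicate 2, nearly all of it Acta1, and to 44.7 to 116 elsewhere. The 8 keratinocyte markers summed to 56.9 to 83.4 over the 6 libraries, and the 8 endothelial markers to 92.5 to 241 in EtOH and 24.6 to 45.2 in TAM.

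The 41 rows together took 0.436%, 2.49% and 0.386% of the library total in EtOH replicates 1, 2 and 3. In TAM replicates 1, 2 and 3 they took 0.473%, 0.736% and 0.478%. A single library thus held a share more than 5 times that of the other EtOH libraries, and TAM replicate 2 lay between it and the remaining 4. In RNA of whole samples, more cells that express these genes and more RNA per cell cannot be told apart. The glycolytic enzymes alone gave 0.228%, 1.32% and 0.196% in EtOH and 0.270%, 0.520% and 0.272% in TAM.

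**Figure D1:**
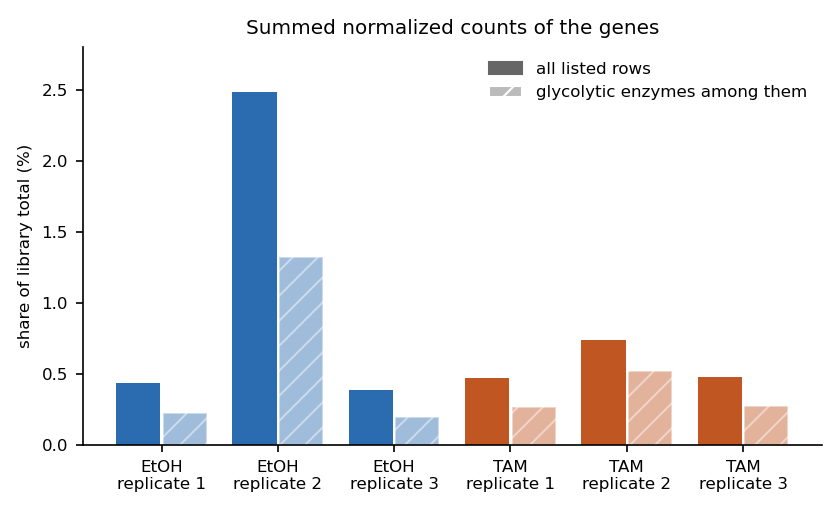
The vertical axis gives the share of each library's total normalized counts in percent, with solid bars for the 41 rows and hatched bars for the glycolytic enzymes among them, blue for EtOH and orange for TAM. EtOH replicate 2 reaches 2.49% and TAM replicate 2 reaches 0.736%, and the other 4 libraries lie between 0.386% and 0.478%.

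EtOH replicate 2 was the highest of the 6 libraries in 35 of the 39 rows tested, against 24.5% of all 11877 genes tested, and it was over 2 times the mean of EtOH replicates 1 and 3 in 34 rows, against 8.83% of all genes. Since the list was chosen for this, nothing is read from the comparison. The log2 difference between EtOH replicate 2 and the mean of replicates 1 and 3 had a median of 2.65 over the 39 rows, and ran from −0.16 for Hif1a to 5.67 for Egln3. Over all genes tested its median was −0.02 and its 99th percentile was 2.83. Of the 20 genes with the largest such difference, 6 are members, and of the 100 largest 16 are. The genes outside the pattern were Hif1a, Pgm1, Adm, Car9 and Pfkfb4. Their EtOH replicate 2 levels were, in that order, 0.897, 1.21, 1.26, 1.40 and 1.55 times the mean of EtOH replicates 1 and 3. The row named Pgm1 is the gene that RefSeq now names Pgm2. The gene that RefSeq names Pgm1 is listed as Pgm2, is no member, and was highest in EtOH replicate 2.

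**Figure D2:**
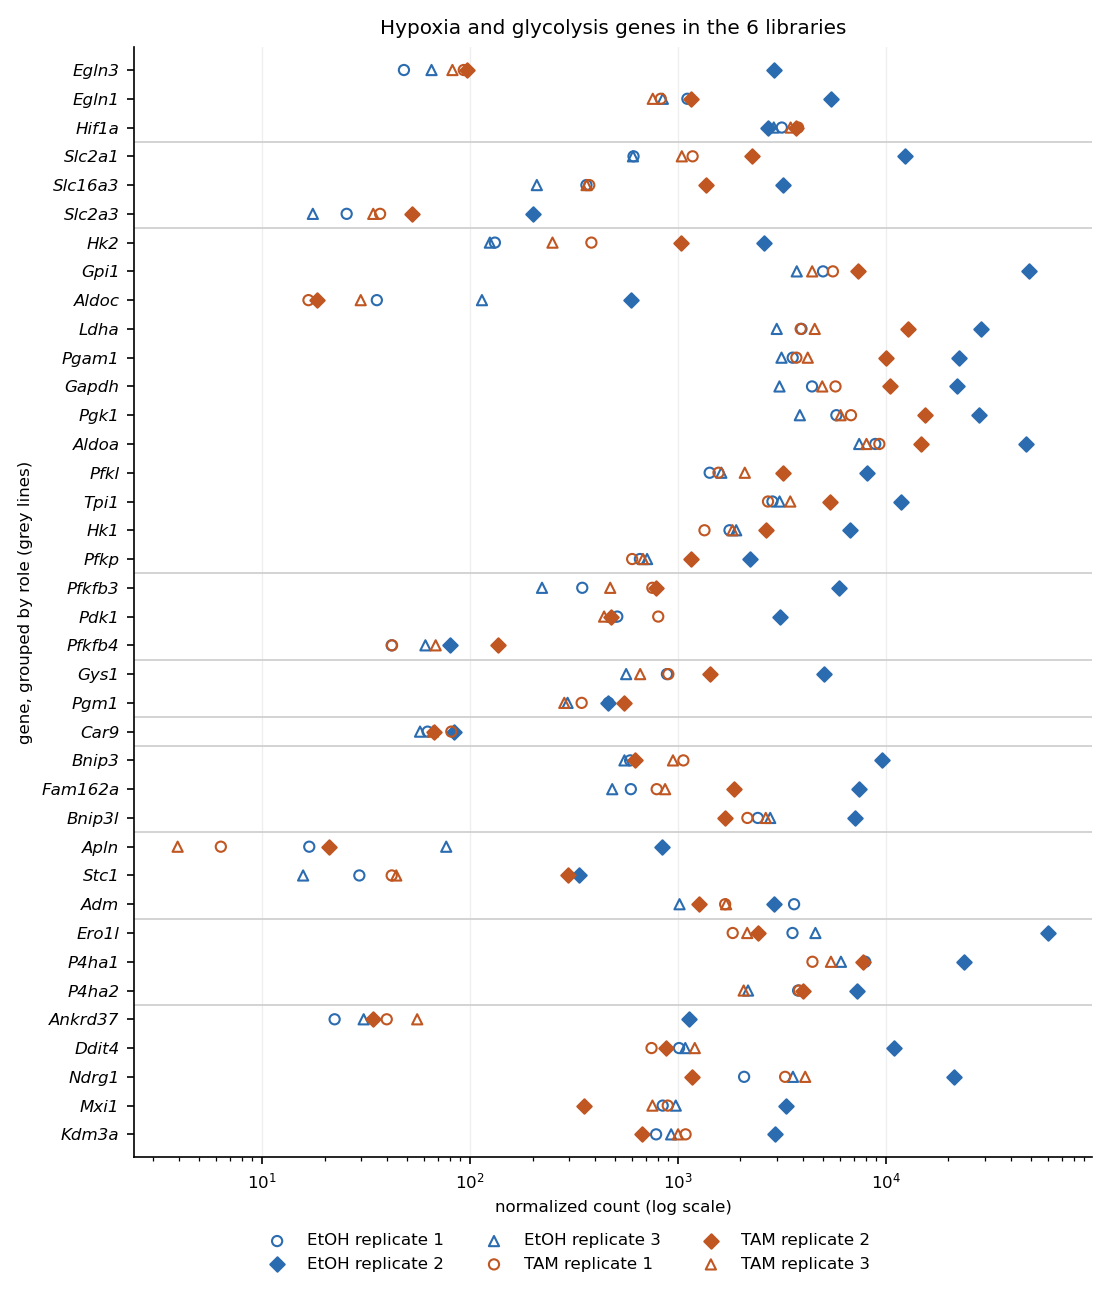
Each row is a gene, grouped by role, and the horizontal log axis gives its normalized count in each of the 6 libraries, blue for EtOH and orange for TAM, with filled diamonds for replicate 2. The blue diamond lies farthest right in 34 of the 38 genes, and only in Hif1a, Pfkfb4, Pgm1 and Adm does another library lie above it.

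Among the sensors of oxygen, Egln3 and Egln1 encode prolyl hydroxylases that act on HIF and are themselves HIF targets. Egln3 (ENSMUSG00000035105, minus strand of chr12:55279968-55304847 in mm9) stood at 48.2, 2904 and 65.4 normalized counts in EtOH replicates 1, 2 and 3 and at 93.4, 97.2 and 82.4 in TAM. The value in EtOH replicate 2 was 29.9 times the next highest library, and the other 5 values lay within a narrow band in which every TAM value exceeded both remaining EtOH values. Egln1, the main hydroxylase of most cells, was 5.58 times the mean of the other EtOH libraries in EtOH replicate 2. Hif1a itself was listed at 3161, 2716 and 2893 in EtOH and at 3784, 3682 and 3486 in TAM. Its lowest value was that of EtOH replicate 2, and the groups did not overlap, with all 3 TAM values above all 3 EtOH values. HIF activity is set mostly by the stability of this subunit's protein, which RNA does not measure.

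Slc2a1 encodes the glucose transporter GLUT1, Slc2a3 the transporter GLUT3, and Slc16a3 the lactate exporter MCT4. Slc2a1 (ENSMUSG00000028645, plus strand of chr4:118781316-118809935 in mm9) was listed at 612, 12302 and 608 in EtOH and at 1178, 2271 and 1045 in TAM. With EtOH replicate 2 set apart, each TAM library held more than both EtOH libraries, and so it was for Slc2a3 and Slc16a3. Per kb of all exons annotated for the gene, of which a row may cover fewer, the mean level of Slc2a1 over the 6 libraries was 1052 normalized counts, against 185 for Slc16a3 and 8.48 for Slc2a3. In EtOH replicate 2 the levels of Slc2a3 and Slc16a3 were 9.35 and 11.2 times the mean of the other EtOH libraries.

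The 12 glycolytic genes found cover every step from glucose to lactate other than enolase and pyruvate kinase, which no member row measures. All 12 were highest in EtOH replicate 2, by 3.25 times for Pfkp, a phosphofructokinase, to 20.3 times for Hk2 against the mean of the other EtOH libraries. Hk2, the inducible hexokinase, stood at 132, 2602 and 125 normalized counts in EtOH and at 384, 1036 and 249.5 in TAM. The EtOH replicate 2 value was 2.51 times that of TAM replicate 2, the next highest, and each TAM library exceeded both other EtOH libraries. Hk1, the hexokinase of most tissues, spanned a smaller range, with EtOH replicate 2 at 3.65 times its group's other members. Aldoa, the muscle and fibroblast aldolase with a mean of 5810 normalized counts per kb of annotated exon, was listed at 8899, 47415 and 7449 in EtOH and at 9309, 14849 and 8076 in TAM. Aldoc, the brain form of aldolase, had 35.7, 596 and 114 in EtOH and 16.7, 18.4 and 29.8 in TAM, so that all 3 TAM values lay below all 3 EtOH values, and it was the only glycolytic gene of the list for which this held.

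The remaining enzymes followed the same order in EtOH. EtOH replicate 2 was 11.1 times the mean of the other EtOH libraries for Gpi1, which makes fructose 6-phosphate, 5.35 times for Pfkl, the liver form of phosphofructokinase, and 3.99 times for Tpi1, which interconverts the triose phosphates. It was 5.89 times for Gapdh, the dehydrogenase often used as a reference gene, 5.80 times for Pgk1, the first ATP-yielding kinase of the pathway, 6.71 times for Pgam1, the phosphoglycerate mutase, and 8.26 times for Ldha, which reduces pyruvate to lactate. Gapdh was listed at 4418, 22068 and 3081 in EtOH and at 5729, 10484 and 4948 in TAM, so libraries of the same group differed in it. Eno1, listed in the table as Gm5506, had 2482, 11790.0 and 1524 in EtOH and 2635, 6245 and 2365 in TAM. Replicate 2 was the highest library of both groups in it, as in Gapdh and Pgk1. The locus Gm5069 listed as Gapdh had 15.5, 38.2 and 13.2 in EtOH and 24.6, 32.7 and 12.7 in TAM, Gm6981 had 5.57 to 19.7 over the 6 libraries, and Aldoart2 had at most 0.96.

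The regulators of glycolytic flux did not move as 1 group. Pfkfb3, which makes fructose 2,6-bisphosphate, the activator of phosphofructokinase, was listed at 347, 5944 and 222 in EtOH and at 754, 781 and 473 in TAM. Pdk1, the kinase that switches off pyruvate dehydrogenase, had 511, 3116 and 480.0 in EtOH and 805, 475 and 442 in TAM. For Pfkfb3 every TAM value exceeded EtOH replicates 1 and 3, whereas for Pdk1 TAM replicates 2 and 3 lay below both. Pfkfb4, a related kinase and phosphatase, was highest in TAM replicate 2 at 136 normalized counts, against 80.2 in EtOH replicate 2 and 42.0 to 68.4 in the other 4 libraries.

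Of the genes of glycogen metabolism, Gys1, the glycogen synthase of muscle and most other tissues, had 886, 5049 and 564 in EtOH and 899.8, 1435 and 659 in TAM. The row named Pgm1, a phosphoglucomutase whose identifier (ENSMUSG00000029171) RefSeq now names Pgm2, had 464, 461 and 295 in EtOH and 345, 549 and 284 in TAM. It did not stand out in EtOH replicate 2, whereas the table's Pgm2, which RefSeq names Pgm1, had 1064, 2900.2 and 958 in EtOH and 793, 979 and 837 in TAM and was highest there. Car9, the membrane carbonic anhydrase that exports acid, was listed at 62.6, 84.0 and 57.6 in EtOH and at 81.4, 67.0 and 66.3 in TAM. Its highest value was again that of EtOH replicate 2, but the 6 libraries stayed within a narrow range.

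Bnip3 and Bnip3l encode receptors that mark mitochondria for autophagy, and Fam162a encodes a small mitochondrial protein. Bnip3 (ENSMUSG00000078566, minus strand of chr7:146082519-146101202 in mm9) had 589, 9584 and 553 in EtOH and 1063, 620.0 and 948 in TAM. Fam162a, with a mean of 3148 normalized counts per kb of annotated exon, had 594, 7399 and 484 in EtOH and 791, 1858 and 868 in TAM. In both genes all TAM values lay above EtOH replicates 1 and 3 and below EtOH replicate 2. They differed in TAM replicate 2, which was the lowest TAM library for Bnip3 and the highest for Fam162a. Bnip3l was 2.74 times the mean of the other EtOH libraries in EtOH replicate 2. Higd1a, another mitochondrial protein of hypoxia, listed in the table as Gm9790, had 420.5, 8332 and 368 in EtOH and 438, 938 and 475 in TAM, and so stood apart in EtOH replicate 2 as much as the leading members.

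Of the secreted factors, Apln, the apelin peptide that acts on endothelial cells, was listed at 16.9, 840.0 and 76.9 in EtOH and at 6.34, 20.9 and 3.93 in TAM. Stc1, a hormone of calcium and phosphate balance, had 29.4, 333 and 15.8 in EtOH and 42.0, 295 and 44.2 in TAM. Here EtOH replicate 2 was only 1.13 times TAM replicate 2, so both replicate 2 libraries stood apart from the other 4. Adm, adrenomedullin, a peptide that widens blood vessels, had 3622, 2914 and 1019 in EtOH and 1688, 1264 and 1706 in TAM. Its highest value was in EtOH replicate 1, and the groups overlapped.

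P4ha1 and P4ha2 encode the catalytic subunits of the collagen prolyl 4-hydroxylases, and Ero1l the oxidase that drives disulphide bonds in the endoplasmic reticulum. Ero1l (ENSMUSG00000021831, minus strand of chr14:45902879-45938237 in mm9) was listed at 3559, 60574 and 4587 in EtOH and at 1836, 2429.8 and 2155 in TAM. Its value in EtOH replicate 2 was 13.2 times the next highest library and the largest normalized count of any member. All 3 TAM values lay below all 3 EtOH values, with or without EtOH replicate 2. P4ha1 and P4ha2 were 3.39 and 2.43 times the mean of the other EtOH libraries in EtOH replicate 2, and their TAM values overlapped those of EtOH replicates 1 and 3.

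The last 5 genes act on growth and chromatin. Ankrd37, an ankyrin repeat protein, had 22.4, 1135 and 30.8 in EtOH and 39.8, 34.3 and 55.8 in TAM, and Ddit4, the mTORC1 inhibitor REDD1, had 1013, 10926 and 1086 in EtOH and 747, 879.7 and 1206 in TAM. For Ankrd37 each TAM value exceeded EtOH replicates 1 and 3, and for Ddit4 the 5 libraries other than EtOH replicate 2 could not be parted by group. Ndrg1, a stress-induced regulator of differentiation, had 2083, 21352 and 3577 in EtOH and 3280.1, 1166 and 4097 in TAM, with EtOH replicate 2 as the highest library and TAM replicate 2 as the lowest. EtOH replicate 2 was 3.65 times its group's other libraries for Mxi1, an antagonist of MYC, and 3.42 times for Kdm3a, a histone H3K9 demethylase.

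The replicate 2 libraries of both groups were then set side by side, since the labels give each group the numbers 1 to 3. TAM replicate 2 was over 2 times the mean of TAM replicates 1 and 3 in 10 of the 39 rows, against 7.78% of all genes tested. The 10 were Stc1 (6.84 times), Apln, Slc16a3 (3.69), Hk2, Ldha (3.04), Pgam1, Pfkfb4, Pgk1, Fam162a and Slc2a1. Other members lay below the rest of the group there, Ndrg1 at 0.316, Mxi1 at 0.431, Bnip3 at 0.617 and Kdm3a at 0.643 times the mean of TAM replicates 1 and 3. Egln3 and Ankrd37, the members that stood farthest apart in EtOH replicate 2, were at 1.11 and 0.719 times. Of the 12 glycolytic genes, 11 were higher in TAM replicate 2 than in the mean of the other TAM libraries, all but Aldoc, and all 5 genes of growth and chromatin were lower. Across the 38 genes the log2 differences of the replicate 2 libraries from their own groups had a Pearson's r of 0.175 and a Spearman's rho of 0.184, given as a description, since the genes share the libraries.

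**Figure D3:**
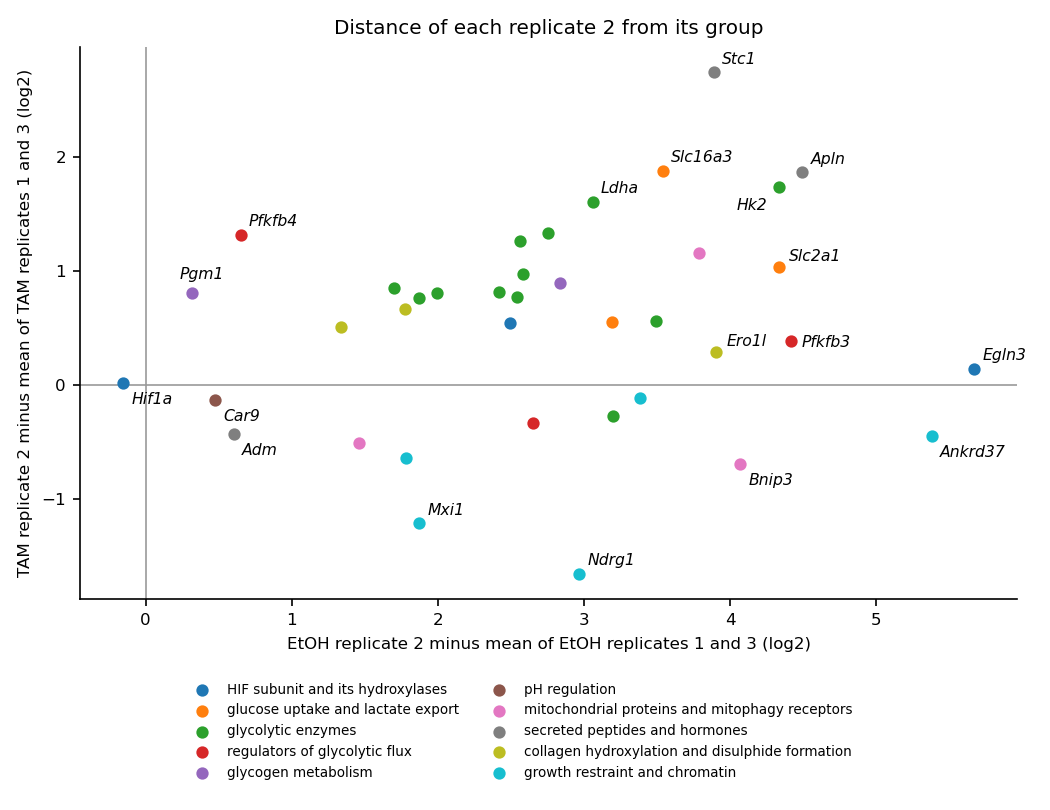
Each point is 1 of the 38 genes, coloured by role, with the log2 distance of EtOH replicate 2 from the mean of EtOH replicates 1 and 3 on the horizontal axis and that of TAM replicate 2 from TAM replicates 1 and 3 on the vertical axis. All genes but Hif1a lie right of 0, out to 5.67 for Egln3, while on the vertical axis they run from −1.65 for Ndrg1 to 2.75 for Stc1.

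The comparison the design implies is that of TAM with EtOH, which asks how expression differed between fibroblasts given TAM and those given vehicle. No sample without the alleles was given TAM, so the drug itself and activation of p27Kip1 cannot be told apart. The comparison was fitted with limma across all 11877 genes on log2(normalized count + 1), a scale that understates the change of low genes. In all 6 libraries no member passed a Benjamini-Hochberg adjusted p of 0.05 in either direction, against 0.168% of all genes higher and 0.0758% lower in TAM. An unadjusted p under 0.05 was found for 0 members higher in TAM, against 6.67% of all genes, and for 2 members lower, Aldoc and Apln, against 6.70%. The log2 fold changes of these genes were −2.63 (SE 0.93, adjusted p = 0.292) and −3.51 (SE 1.34, adjusted p = 0.323). The fold change was above 0 in 7 of the 39 rows, against 46.2% of all genes, and the median was −0.38 over the members and −0.03 over all genes. These signs follow from the library that chose the members, and nothing is read from them. The SE was 0.99 for Ero1l and 1.43 for Egln3 (log2 fold changes −2.23 and −1.21), against 0.21 and 0.27 without EtOH replicate 2.

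Without EtOH replicate 2 the fold change was above 0 in 29 of the 39 rows, against 45.6% of all genes, with a median of 0.35 over the members and −0.04 over all genes. Again no member passed the adjusted threshold, where 0.0168% of all genes were called higher and 0% lower. An unadjusted p under 0.05 was found for 5 members that were higher, against 7.59% of all genes, and for 2 that were lower, against 6.41%. The higher ones were Hk2, with a log2 fold change of 1.84 (SE 0.59, adjusted p = 0.266), Pfkfb3 at 1.23 (SE 0.31, adjusted p = 0.207), Slc2a1 at 1.21 (SE 0.35, adjusted p = 0.238), Fam162a and Egln3. The lower ones were Ero1l at −0.93 (SE 0.21, adjusted p = 0.180) and Aldoc. Fam162a, Egln3 and Aldoc had fold changes of 1.02, 0.68 and −1.56. With all 6 libraries the sign was the opposite for Pfkfb3, Slc2a1, Fam162a and Egln3, but not for Hk2, Ero1l and Aldoc. By role, the fold change without EtOH replicate 2 was above 0 for all 3 genes of glucose uptake and lactate export and for 11 of the 12 glycolytic genes. It was also above 0 for 1 of the 3 secreted factors and 1 of the 3 genes of collagen folding. TAM replicate 2 stays in this fit. With replicate 2 of both groups left out, Hk1 (−0.23), Pgm1 (−0.24), Pfkp (−0.094) and P4ha2 (−0.028) fell below 0, and Ndrg1 (0.43) rose above it. The other glycolytic genes but Aldoc, and all 3 genes of glucose uptake and lactate export, stayed above 0. Among them Tpi1 (0.050, SE 0.17) and Aldoa (0.091, SE 0.19) lay within their SE of 0. Ldha was then at 0.30 against 0.83, Pgk1 at 0.44 against 0.86 and Pgam1 at 0.24 against 0.68.

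**Figure D4:**
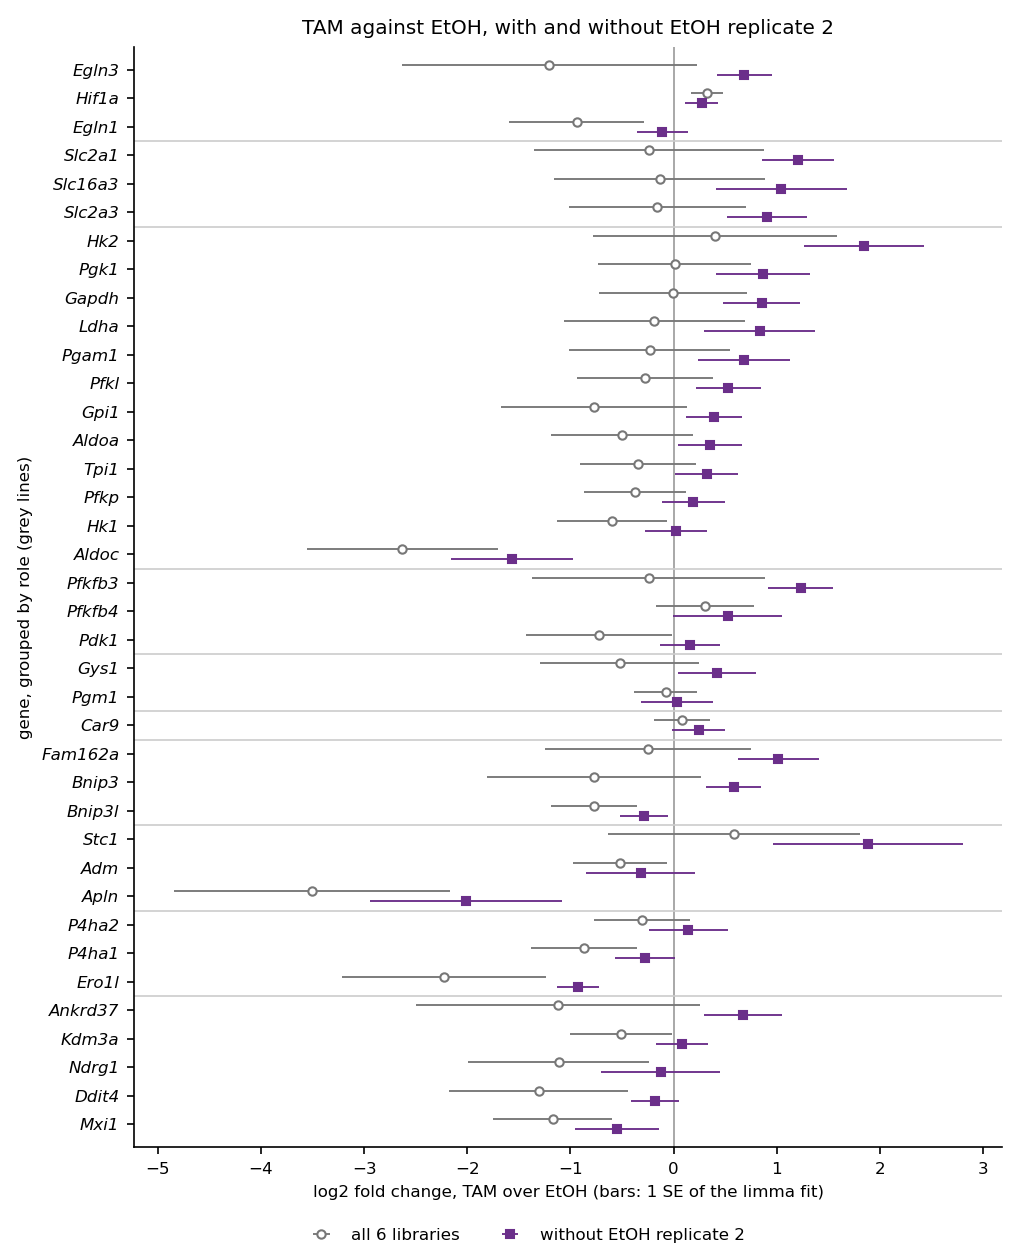
For each of the 38 genes, grouped by role, the horizontal axis gives the log2 fold change of TAM over EtOH, as open circles with all 6 libraries and filled squares without EtOH replicate 2, with bars of 1 SE. The squares lie right of the circles for all genes but Hif1a, most of them right of 0, with Aldoc, Apln and Ero1l among the exceptions.

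Whether the groups overlapped was also counted. With all 6 libraries the TAM values lay wholly above the EtOH values in 1 member, Hif1a, against 9.19% of all genes, and wholly below in 2, Aldoc and Ero1l, against 11.4%. Without EtOH replicate 2 the TAM values lay above in 15 of the 39 rows, against 15.5% of all genes, and below in 2, again Aldoc and Ero1l, against 19.6%. The 15 were Hk2, Slc2a1, Slc2a3, Slc16a3, Gapdh, Pgk1, Pgam1, Pfkfb3, Egln3, Hif1a, Bnip3, Fam162a, Stc1, Car9 and Ankrd37. Hif1a had a log2 fold change of 0.32 (SE 0.16, adjusted p = 0.437) with all libraries and of 0.27 without EtOH replicate 2, and did not pass the threshold in either.

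Same-numbered libraries of the groups deviated together, though nothing states that they were handled together. As an alternative, the fit was repeated with the replicate number as a block. With all 6 libraries 0 members passed the adjusted threshold, against 1.00% of all genes higher and 0.615% lower. With the p left unadjusted, 0 members were under 0.05 as higher, against 8.64%, and 4 as lower, against 8.32%, namely Aldoc, Apln, Ero1l and P4ha1. With the block and without EtOH replicate 2, a fit added after the data were seen and resting on pairs 1 and 3 alone, since TAM replicate 2 then has no partner, 4 members passed the adjusted threshold as higher, against 4.60% of all genes, and 1 as lower, against 3.29%. Hk2 had a log2 fold change of 1.26 (SE 0.19, adjusted p = 0.0254), Pfkfb3 of 1.10 (adjusted p = 0.0159), Slc2a1 of 0.86 (adjusted p = 0.0268) and Bnip3 of 0.81 (adjusted p = 0.0304). Ero1l was at −1.02 (SE 0.14, adjusted p = 0.0194). This fit leaves few residual degrees of freedom, so its SEs lean on the spread over all genes. Without replicate 2 of both groups and without the block, limma gave the same fold changes. The adjusted p was then 0.0994 for Hk2, 0.167 for Pfkfb3, 0.0741 for Slc2a1, 0.0827 for Bnip3 and 0.0895 for Ero1l. No member was called in any other fit that was run.

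Other genes of the same pathways were read from lists that hold no member. Of 11 further genes of the HIF system, all tested, none passed with all 6 libraries and no block. With the block on all 6 libraries Epas1, which encodes the alpha subunit HIF-2alpha, passed as higher, at 82.6, 32.4 and 45.0 in EtOH and 505, 351 and 233 in TAM (log2 fold change 2.78, adjusted p = 0.0274 with the block and 0.0633 without). Its lowest value was that of EtOH replicate 2, as for Hif1a, and it was also the only gene of this list called in the blocked fit without EtOH replicate 2 (adjusted p = 0.00604). Hif3a, an alpha subunit with isoforms that restrain HIF, had 35.8, 174 and 83.4 in EtOH and 25.0, 26.0 and 37.2 in TAM, and was highest in EtOH replicate 2 (log2 fold change −1.45, adjusted p = 0.337).

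Of 36 other HIF targets, 31 were tested. With all 6 libraries none passed without the block, and Plod2, a lysyl hydroxylase of collagen, passed as lower with it. The blocked fit without EtOH replicate 2 called 3 of the 31 higher, Fgf11 (adjusted p = 0.0281), Bhlhe40 (adjusted p = 0.0304) and Ppp1r3c (adjusted p = 0.0393), and 2 lower, Plod2 (adjusted p = 0.00522) and Edn1 (adjusted p = 0.0489), so its calls were not limited to the members. TAM replicate 2 has no partner in that fit. For Ppp1r3c, at 262, 1762 and 439 in EtOH and 429, 164 and 904 in TAM, it was the lowest library. For Edn1, at 154, 43.9 and 60.25 in EtOH and 46.0, 109 and 28.5 in TAM, it lay above EtOH replicates 2 and 3. With all 6 libraries the log2 fold change was 0.55 for Fgf11, −0.14 for Bhlhe40, −0.55 for Ppp1r3c and −0.49 for Edn1. EtOH replicate 2 was the highest library in 23 of the 31, beside the 24.5% of all genes given above. Plod2 was listed at 3047, 5827 and 5047 in EtOH and at 798, 1005 and 1303 in TAM (log2 fold change −2.14, adjusted p = 0.0237 with the block and 0.0546 without), so that its groups did not overlap and EtOH replicate 2 did not stand apart. The largest fold changes were those of Selenbp1, a methanethiol oxidase, at 101, 1529.8 and 186 in EtOH and 48.7, 17.6 and 65.1 in TAM, and of Zfp395, at 506, 3286 and 783 and 394, 83.8 and 324. Their fold changes were −2.97 and −2.30, with adjusted p of 0.274 and 0.293.

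Of 22 other glycolytic enzymes and transporters, 15 were tested and none passed with all 6 libraries, with or without the block. In the blocked fit without EtOH replicate 2, 1 passed as higher, Pdk4, a further kinase of pyruvate dehydrogenase (log2 fold change 1.39, adjusted p = 0.0110). Pdk4 had 630, 679 and 313 in EtOH and 1541, 128 and 878 in TAM. The groups overlapped, and TAM replicate 2, which has no partner in that fit, was the lowest of the 6 libraries. Without the block its log2 fold change was 0.12 with all 6 libraries and 0.33 without EtOH replicate 2. Pgam2, the muscle phosphoglycerate mutase, had 27.1, 27.6 and 38.9 in EtOH and 67.2, 76.2 and 86.9 in TAM (log2 fold change 1.28, adjusted p = 0.162), and Bpgm, the bisphosphoglycerate mutase, had 332, 191 and 287 in EtOH and 509, 991 and 444 in TAM (log2 fold change 1.21, adjusted p = 0.233). Bpgm was lowest in EtOH replicate 2, and Pgam2 was about as high there as in EtOH replicate 1. In both genes every TAM value exceeded every EtOH value, which held for no listed glycolytic gene with all 6 libraries. The pyruvate kinase gene of the step missing from the members, listed as Pkm2 and named here after its values were seen, had 11264, 60062 and 10749.7 in EtOH and 19203, 42062 and 18786 in TAM, the same order of libraries as Gapdh and Pgk1.

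Genes of mitochondrial pyruvate metabolism, read as RNA alone, did not share the pattern. Of 22 genes of pyruvate dehydrogenase and the TCA cycle, all tested, none passed with all 6 libraries, with or without the block, and the log2 difference of EtOH replicate 2 from the other EtOH libraries had a median of −0.05 and ran from −0.52 to 0.57. The largest fold changes were those of Pcx, pyruvate carboxylase, at 0.78 (adjusted p = 0.277), and Suclg2, a subunit of succinyl-CoA ligase, at −0.68 (adjusted p = 0.187). Suclg2 was called lower in the blocked fit without EtOH replicate 2 (log2 fold change −0.69, adjusted p = 0.0426). In the pentose phosphate pathway none of 7 genes passed in any of these fits, and the same log2 difference ran from −0.40 to 0.48, with Rpia, the ribose phosphate isomerase, at a fold change of −0.68 (adjusted p = 0.274) and Taldo1, the transaldolase, at 0.51 (adjusted p = 0.534).

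Some values are uncertain because of near-identical copies elsewhere in mm9. Counting matches of 100 bases or longer with an identity of 95% or above, 88.6% of the Gapdh transcript matched 48 other places, and 98.8% of Bnip3, 95.7% of Pgk1, 94.7% of Pgam1 and 88.2% of Gpi1 matched between 1 and 4. For Ero1l, Tpi1, Bnip3l, Egln1 and Ldha 19.2% to 55.5% did so, and for the other 28 genes none. Of the genes given apart from the members, 85.6% of Eno1 matched 4 other places and 24.7% of Higd1a matched 1. The row of Gapdh in the table covers 675 bases of the gene. The strand setting of the counting is not given in the sources used here, so reads of overlapping genes on the opposite strand cannot be told apart. Such overlap covered 28.9% of the exons of Ankrd37 (with Lrp2bp and Ufsp2), 16.5% of Gpi1, 15.6% of Slc16a3 and at most 9.29% of any of the other 35 genes.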

How the data were processed

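Reads from the poly(A) RNA of 6 samples of MSFs were mapped by the authors to mm9 with TopHat, counted per gene with htseq-count and tested with edgeR after TMM scaling. The values that the authors deposited are a signal, namely normalized counts of 22162 genes. How it was scaled is not given in the sources used here, and the values are not whole numbers, so a count test was not run and limma took its place. The total per library lay between 14952367 and 17314953 normalized counts, the smallest values above 0 between 0.36 and 0.89. The depth behind them is unknown, so no counting intervals are given, and the precision is that of 3 samples against 3.

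Differences in log2(value + 1) were fitted in R 4.3.3 with limma 3.58.1 and a trend on intensity, for genes that reached 16.2 normalized counts (1 c.p.m.) in 3 or more libraries, and adjusted by the Benjamini-Hochberg method over all 11877. The model was first run on simulated data. These gave every gene the same spread and held no outlying library, so that run does not bear on EtOH replicate 2. The members, their roles and all other lists were chosen with earlier results of these data known. Values in every library are given for members called in the fit, in the blocked fit or without EtOH replicate 2, for the highest level per kb of exon and the largest log2 fold change in each role, and for the 6 largest and 3 smallest differences of EtOH replicate 2. Of the other lists, up to 3 called genes or, with none called, the 2 with the largest fold change are named. Further values shown were chosen after they were seen.

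Replicate numbers come from the labels alone. Deviations from the group means of same-numbered libraries correlated at 0.241, 0.287 and 0.422 for numbers 1, 2 and 3, against −0.31 to 0.0374 for other pairs. Deviations cancel out within a group, so positive values for same numbers push those of other pairs down. The blocked fits take the numbers to pair the samples. That pairing is not stated in the sources used here and was read from the same values, so these fits are alternatives only. Exon lengths, opposite-strand overlap and copies (BLAST 2.17.0) are from the mm9 genome and its GENCODE annotation, and promoters from RefSeq (GRCm38.p6), found by RefSeq accession. Python 3.11.15 with pandas 2.3.3 and matplotlib 3.10.9 served for tables and plots. Alternatives were other pseudocounts, filters and scalings, library weights, the replicate block and leaving out libraries. The study's qRT-PCR, protein and tumour experiments were not analysed here.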

Additional observations from a re-analysis of the deposited data

How the results depend on the processing

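No member was called with all 6 libraries under any alternative. The counts over all genes, 20 higher and 9 lower in TAM, were less steady: 119 and 73 with the replicate block, 12 and 5 with no filter on low values, 386 and 356 with library weights, 13 higher with quantile normalization and 4 lower with at least 10 in every library. They ran from 0 to 7 higher and 0 to 10 lower when single replicates were left out. The blocked fit that leaves out EtOH replicate 2, added after seeing the data, called 546 and 391 genes, with 4 and 1 members. The members' median log2 fold change of −0.38 ran from −0.95 to 0.35 when single replicates, or replicate 2 of both groups, were left out. Among these fits it was above 0 only without EtOH replicate 2 (0.35) or without replicate 2 of both groups (0.26). It was −0.26 with library-size scaling, which moved the median of all genes from −0.03 to 0.08, then 0.081 with library weights and 0.26 in the blocked fit without EtOH replicate 2.

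Without EtOH replicate 2 and with the replicate block the sign turned for 19 of the 38 genes. Single genes were followed through all alternatives only where the rule for named genes took them. Of these 18, it turned for Slc2a1 (0.86), Gys1 (0.12), Aldoa (0.091), Egln3 (0.64), Fam162a (0.63), Bnip3 (0.81), Pfkfb3 (1.10), Pdk1 (0.27) and Ankrd37 (0.82), and with library weights for Slc2a1 (0.54), Egln3 (0.15), Fam162a (0.45), Bnip3 (0.42), Pfkfb3 (0.60) and Ankrd37 (0.52). It also turned for Car9 with quantile normalization (−0.024) and Pgm1 with library-size scaling (0.036). Leaving out single replicates, or replicate 2 of both groups, gave −0.96 to 1.21 for Slc2a1, −1.16 to 0.42 for Gys1 and −0.99 to 0.35 for Aldoa. The range was −2.26 to 0.68 for Egln3, −0.95 to 1.02 for Fam162a, −1.48 to 0.81 for Bnip3 and −0.025 to 0.29 for Car9. For Pfkfb3 it was −1.14 to 1.23, for Pdk1 −1.19 to 0.27 and for Ankrd37 −2.13 to 0.82. Hk2 ran from −0.34 to 1.84 and Pgm1 from −0.35 to 0.13. The cause was not tested. Aldoc, Ero1l, Ddit4 and Adm stayed below 0 and Hif1a above 0 under every alternative run, as did Apln below 0 under all but the filter of at least 10 in every library, which it did not pass.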

Other observations

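Among the genes farthest above their group in EtOH replicate 2 that are neither members nor on the list of other HIF targets, several were also high in TAM replicate 2. Cck, a peptide hormone and the gene with the largest difference of all genes tested, was listed at 1.28, 310.0 and 6.93 normalized counts in EtOH replicates 1, 2 and 3 and at 43.5, 2753 and 111 in TAM. Ptgs2, the inducible cyclooxygenase, had 144, 2301 and 23.8 in EtOH and 508, 8358 and 403 in TAM. Rgs16, a regulator of G-protein signalling, had 76.3, 1462 and 17.6 in EtOH and 271, 3724 and 180 in TAM. In these genes both replicate 2 libraries lay above the rest of their groups, and TAM replicate 2 was the highest of the 6.

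Egln3, Ankrd37, Ero1l and Ddit4 were high in EtOH replicate 2 alone. Fos, an immediate early gene, had 110.0, 1342 and 22.0 in EtOH and 149, 241 and 112 in TAM. Sap30, a subunit of the SIN3 corepressor complex, had 23.9, 446 and 25.5 in EtOH and 54.8, 83.8 and 53.7 in TAM, an order of libraries like that of the leading members.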
